A study of Mus musculus with 2 samples.

Results

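The cells described here are the dendritic cells of a mouse liver library labelled postnatal day 180 (P180). They were chosen by their own RNA counts. A barcode (the tag of 1 droplet) had to show at least 200 genes, at least 500 unique molecular identifiers (UMIs, each standing for 1 captured RNA molecule) and under 25% mitochondrial UMIs. It then had to hold at least 10 UMIs over 8 genes: Siglech, Ccr9 and Klk1 of plasmacytoid dendritic cells, Flt3, Cd209a, and the class II genes H2-Aa, H2-Eb1 and H2-Ab1. At most 1 UMI of the B cell genes Cd79a, Cd79b and Vpreb1 was allowed, with under 10% haemoglobin UMIs and under 1% UMIs of Camp and Ngp, which developing neutrophils make. Of 9582 barcodes past the quality limits, 155 reached 10 UMIs of the 8 genes. The other limits removed 59 of these, 53 of them through the B cell genes alone. This left 96 cells of the library's 9771 barcodes and of 19642 barcodes in the series, or 1.00% of those past the quality limits (exact binomial 95% interval 0.812 to 1.22%). Because counts of these genes chose the cells, their levels against other barcodes are given as a description.

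The series holds 2 libraries of whole liver, 1 labelled P180 and 1 labelled with an embryonic day (E18.5). In both, the embryos were knockouts of Hhex, a transcription factor gene needed for liver development, and at the blastocyst stage they had received 4N (tetraploid) embryonic stem cells positive for the red fluorescent protein tdTomato. The gene table holds 0 tdTomato features, so donor and host cells were not told apart, and the sources used here do not say which part of Hhex was removed. With 1 library for each label, no test of a difference was made: intervals are exact and cover counting error only, and levels are summed UMIs scaled to 1000000 (CPM). The contents run against the labels. Barcodes with at least 10% haemoglobin UMIs made up 78.4% of those past the quality limits in the library labelled P180, against 2.84% in the library labelled E18.5, although the liver makes blood in the fetus and not in the adult. Each library is therefore named by its label alone. The libraries shared 28 barcodes, of which 0 were among the 96 cells and 1 was among the 518 chosen by the same rule in the library labelled E18.5.

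Hhex RNA was present in the dendritic cells. The knockout was that of the embryos that received the stem cells. Donor and host cells were not told apart, so it is not known which of the dendritic cells carried the knockout. It gave 175 UMIs in 67 of the 96 cells, or 77.1 CPM, against 40.5 CPM in the other barcodes of the library. In the cells with Clec9a or Xcr1, which are defined further on, it stood at 74.3 CPM in those labelled P180 and at 50.2 CPM in those labelled E18.5. With each cell thinned to 2000 UMIs, it was found in 18.3% of those labelled P180 and in 9.90% of those labelled E18.5. It was found in 15.4% of barcodes with monocyte genes labelled P180 and in 0.425% of the haemoglobin-rich barcodes, thinned in the same way. Unthinned, 82.9% of the monocyte-gene barcodes had it. Counts near the end of a transcript do not show whether the RNA is whole.

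Dendritic cells take up material, cut its proteins into peptides and show these to T cells on major histocompatibility complex (MHC) molecules. Class II molecules, built from an alpha chain such as H2-Aa and a beta chain such as H2-Ab1 or H2-Eb1, carry peptides to CD4 T cells; Cd74, the invariant chain, escorts them, and Ciita is their master transcriptional coactivator. Conventional dendritic cells of type 1 depend on Irf8 and Batf3, carry Clec9a and Xcr1 and show captured material on class I molecules to CD8 T cells. Type 2 cells carry Sirpa and depend on Irf4 and Zeb2, and plasmacytoid cells carry Siglech, depend on Tcf4 and release type I interferon. All 3 arise from precursors that need the growth factor receptor Flt3.

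The 96 cells held 1576 to 47863 UMIs, with a median of 23424 UMIs and 4800 genes, against a median of 6001.5 UMIs over all barcodes past the quality limits. Class II RNA dominated: H2-Aa gave 15584 UMIs in 92 cells, H2-Ab1 gave 10988 in 91 cells and H2-Eb1 gave 9708 in 91 cells. Cd74, which the rule did not count, was found in 93 cells, with a median of 240 and a highest count of 485 UMIs. Flt3 was widespread at low counts, with 366 UMIs in 84 cells. The other genes of the rule were sparse: Ccr9 gave 77 UMIs in 31 cells, Siglech 61 in 8, Cd209a 14 in 4 and Klk1 4 in 2. The limit of 10 UMIs cut through an almost empty range. The 4 nearest barcodes outside held 9, 7, 5 and 5 UMIs of the 8 genes, and those of the first 2 were all Flt3. The 5 nearest inside held 11, 12, 14, 16 and 19 UMIs, the first all Flt3 and the second 10 Flt3 and 2 Ccr9.

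Most of the cells carried genes of type 1. A division chosen after the values were seen put 71 of 96 cells (74.0%, 64.0 to 82.4%) in a set with at least 10 class II UMIs and at least 2 UMIs of Clec9a and Xcr1, called Clec9a/Xcr1 cells below. Another 18 cells (18.8%, 11.5 to 28.0%) had class II RNA with at most 1 UMI of these genes, 5 cells had at least 5 Siglech UMIs, and 2 had Flt3 without class II RNA. The division planned from the genes of the rule left 9 cells on the side of Siglech, Ccr9 and Klk1 and 2 on the side of Cd209a, too few for the planned comparison. By the same definitions the library labelled E18.5 held 195 Clec9a/Xcr1 cells of 518, or 37.6%. It also held 317 with class II RNA and at most 1 UMI of Clec9a and Xcr1, 2 of the Siglech kind and 4 of the Flt3 kind.

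**Figure D1:**
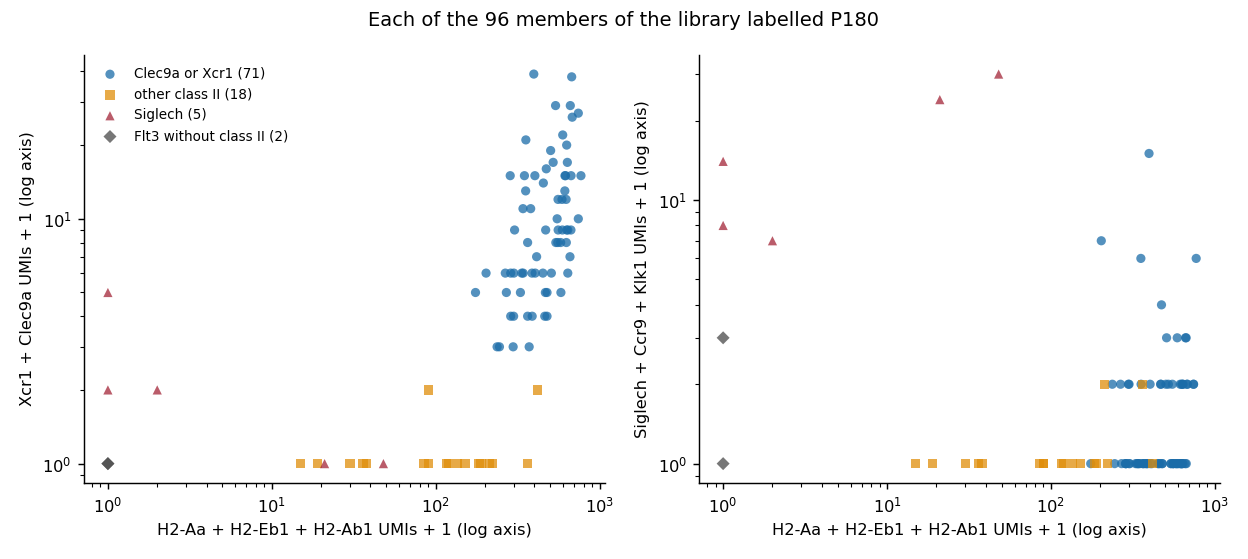
Each point is 1 of the 96 dendritic cells. The x axes give UMIs of H2-Aa, H2-Eb1 and H2-Ab1 plus 1, and the y axes give UMIs of Xcr1 and Clec9a plus 1 (left) or of Siglech, Ccr9 and Klk1 plus 1 (right), all on log axes. The 71 Clec9a/Xcr1 cells form a group at high class II counts, and the 5 Siglech cells lie apart from it on the right.

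Each of the 71 Clec9a/Xcr1 cells had class II RNA in abundance. Together, H2-Aa, H2-Eb1 and H2-Ab1 gave 174 to 769 UMIs in a cell, with a median of 472. H2-Aa alone ranged over 72 to 352 UMIs (median 203), H2-Ab1 over 40 to 262 (median 149), H2-Eb1 over 46 to 239 (median 116) and Cd74 over 130 to 485 (median 282). All 4 genes were found in every cell of the set. The set required at least 10 UMIs of H2-Aa, H2-Eb1 and H2-Ab1 together, so their presence was partly fixed by the choice of cells. Cst3, the protease inhibitor cystatin C that dendritic cells make in bulk, gave 112 to 713 UMIs with a median of 399.

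Class II promoters are known for X and Y box elements, which bind the RFX and NF-Y factors through which Ciita acts. These promoters are shown here because class II RNA, which the rule counted, marks nearly all of the cells. Windows of 250 bases before to 50 bases after the gene start were read from RefSeq sequence (GRCm38.p6) and searched for GATTGG, the core of a Y box read on the gene's strand, and for AACTNTGA or AACTNNTGA, a form of the X box, on both strands. The motifs were chosen with the sequences in view, so the shares that follow are a description and no test of enrichment. Of 14 genes of the class II list, 11 had a window. GATTGG stood in 8 of the 11 windows, against 16.1% of 32851 windows of all genes, and the second motif in 3, against 7.23%. The second motif within 40 bases before GATTGG on the gene's strand was found in the same 3 class II windows, those of H2-Aa, H2-Eb1 and H2-DMb1, and in 18 windows, or 0.0548%, of all genes. The pair stood in 0 of 10 windows of type 1 genes. The 3 windows are shown 5′ to 3′ with each motif match in capitals (CCAATC is GATTGG on the other strand); 22, 20 and 21 bases separate the pair in H2-Aa, H2-Eb1 and H2-DMb1. The window of Clec9a, which is expressed in the same cells, is shown last; its 2 capital runs are matches of the second motif on the other strand, with no GATTGG. A match describes letters and not binding.
H2-Aa (chr17:34287774-34288073, - strand): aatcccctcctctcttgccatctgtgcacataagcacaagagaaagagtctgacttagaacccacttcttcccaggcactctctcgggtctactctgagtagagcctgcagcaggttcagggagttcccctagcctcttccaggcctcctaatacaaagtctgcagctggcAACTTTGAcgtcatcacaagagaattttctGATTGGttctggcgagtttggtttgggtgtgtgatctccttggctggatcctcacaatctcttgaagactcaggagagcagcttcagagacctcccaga
H2-Eb1 (chr17:34305617-34305916, + strand): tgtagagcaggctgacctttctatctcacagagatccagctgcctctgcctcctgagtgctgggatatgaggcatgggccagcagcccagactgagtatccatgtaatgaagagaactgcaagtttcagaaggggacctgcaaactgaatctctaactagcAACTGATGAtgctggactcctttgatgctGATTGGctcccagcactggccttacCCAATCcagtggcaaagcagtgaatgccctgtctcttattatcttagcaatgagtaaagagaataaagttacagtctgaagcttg
H2-DMb1 (chr17:34152941-34153240, + strand): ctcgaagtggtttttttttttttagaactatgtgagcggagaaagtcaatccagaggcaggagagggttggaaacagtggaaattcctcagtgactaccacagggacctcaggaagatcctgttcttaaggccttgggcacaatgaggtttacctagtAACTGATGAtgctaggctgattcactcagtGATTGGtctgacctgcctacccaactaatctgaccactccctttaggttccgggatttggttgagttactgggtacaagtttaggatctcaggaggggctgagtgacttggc
Clec9a (chr6:129408612-129408911, + strand): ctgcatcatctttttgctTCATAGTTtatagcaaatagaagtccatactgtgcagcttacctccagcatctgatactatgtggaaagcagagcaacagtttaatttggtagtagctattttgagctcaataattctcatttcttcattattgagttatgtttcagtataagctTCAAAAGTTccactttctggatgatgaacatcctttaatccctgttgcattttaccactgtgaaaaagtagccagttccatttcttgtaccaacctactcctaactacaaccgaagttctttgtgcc

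Beyond Clec9a and Xcr1, which defined them, the 71 cells carried the type 1 list widely. Clec9a (chr6:129408862-129424763, mm10), a receptor for actin exposed on dead cells, gave 1 to 37 UMIs with a median of 6. Xcr1, the receptor for the chemokine Xcl1, was found in 35 of the 71 cells, at up to 11 UMIs. Naaa, a lipid amidase, gave 1 to 83 UMIs (median 28), and Cadm1, an adhesion molecule, 1 to 81 (median 24); neither was at 0 in any cell. Wdfy4, needed for cross-presentation, gave 6 to 100 UMIs (median 29). The transcription factor Irf8 gave 22 to 147 UMIs (median 58). Siglech was found in 2 of the 71 cells, at 1 UMI each. Cd209a was found in 1, at 10 UMIs, and that cell also held Clec9a.

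The 18 other class II cells were mixed. In 8 of them Zeb2 reached 4 to 37 UMIs, and these 8 cells also held Sirpa at 3 to 8 UMIs (median 5), Ms4a6c at 8 to 26 (median 15) and the lysozyme gene Lyz2 at 5 to 100 (median 16.5). Irf8 stood at 1 to 6 and Naaa at 0 to 2 UMIs in them. All 8 held monocyte genes too, with 20 to 41 UMIs (median 24.5) of Csf1r, F13a1, Ccr2, Ms4a6c and Ly6c2, and one also held 19 C1qb and 114 Apoe UMIs, genes of macrophages. At least 10 UMIs of these monocyte genes were found in 9 of the 18 cells, against 19 of the 71 Clec9a/Xcr1 cells and 3 of the 5 Siglech cells. Mgl2, Clec10a and Clec4a4 of the type 2 list were at 0 in all 18 cells. Another 2 cells had at least 5 UMIs of Ccr7, the receptor that guides mature dendritic cells to lymph nodes. One had Ccr7 9, Fscn1 85, Ccl22 29 and Ccl5 105 UMIs. The other had Ccr7 26, Fscn1 2, Ccl22 39 and 149 UMIs of Il12b, a subunit of interleukin 12. The remaining 8 cells had 0 Zeb2 UMIs, and Irf8 ranged over 0 to 51 (median 15.5); in 3 of them Naaa reached 5 UMIs or more.

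Set against these 18 cells, the 71 Clec9a/Xcr1 cells were at least 2-fold higher for 12 of 13 measured type 1 genes and lower for 0, where 4.83% of 3356 genes with a mean of at least 50 CPM were that much higher and 6.64% that much lower. Clec9a is among the 12, while Xcr1 fell below the mean of 50 CPM and is not among the 13. Both genes defined the sets, so the call of Clec9a was fixed in advance and says nothing new. Tlr3, a sensor of double-stranded RNA, stood at 155 CPM in Clec9a/Xcr1 cells against 19.99 CPM in the other class II cells (log2 ratio 2.95, 1.81 to 4.41), and its 6 UMIs in the 18 cells came from 2 cells. Naaa stood at 1125 against 187 CPM, Cadm1 at 1056 against 310 CPM, and Wdfy4 at 1263 against 446 CPM. At the low end, S100a4 stood at 1.64 against 326 CPM (log2 ratio -7.64, -9.94 to -6.05), Sirpa at 2.18 against 160 CPM, Zeb2 at 8.74 against 513 CPM and Ms4a6c at 80.3 against 473 CPM. Genes for chemokine ligands were lower for 7 of 8 measured and higher for 0, but few cells carried them: all 68 Ccl22 UMIs of the 18 cells lay in the 2 cells with Ccr7, and 105 of 123 Ccl5 UMIs in 1 of these. Class II genes were higher for 5 of 10 and lower for 2.

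The 5 Siglech cells stood apart in counts of plasmacytoid genes. Siglech, a surface receptor of plasmacytoid cells, gave 6, 6, 13, 14 and 19 UMIs in them. In the same order of cells, H2-Aa, H2-Eb1 and H2-Ab1 together gave 1, 0, 0, 20 and 47 UMIs, so 3 cells had next to no class II RNA. Those 3 cells held Flt3 at 8, 12 and 13 UMIs. The 2 cells with class II RNA held Ccr9, a gut-homing receptor, at 6 and 9 UMIs and Klk1 at 3 and 1. Irf8 was found in all 5, at 63, 46, 70, 27 and 40 UMIs. Bst2, an antiviral membrane protein, was also found in all 5, at 21, 13, 34, 33 and 21 UMIs. The transcription factor genes Tcf4 (10, 156, 31, 9 and 31 UMIs) and Runx2 (15, 98, 52, 5 and 35 UMIs) differed widely among the 5, with the second cell highest for both. Cd7 was found in all 5, at 3 to 9 UMIs, and Ly6d in 4, at up to 76. Summed over the list of 20 plasmacytoid genes, the level was 11966 CPM in the Siglech cells, against 1260 CPM in the Clec9a/Xcr1 cells and 2112 CPM in the other class II cells, though Siglech, Ccr9 and Klk1 of this list served to choose cells. The chemokine gene Ccl4 stood at 4054 CPM in the Siglech cells, with UMIs in 4 of 5.

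The 2 cells with Flt3 and no class II RNA went against the label of dendritic cells. Irf8 gave 0 UMIs in one and 1 in the other, Cd74 gave 0 in both, and 11 of 14 type 1 genes were at 0. One held 11 Flt3 UMIs with 19 of Hlf and 22 of Mecom, genes of blood stem cells, and 17 of Hmga2. The other held 10 Flt3 UMIs with 20 of Hmga2 and 14 of Dntt, which adds bases during immune receptor rearrangement.

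**Figure D2:**
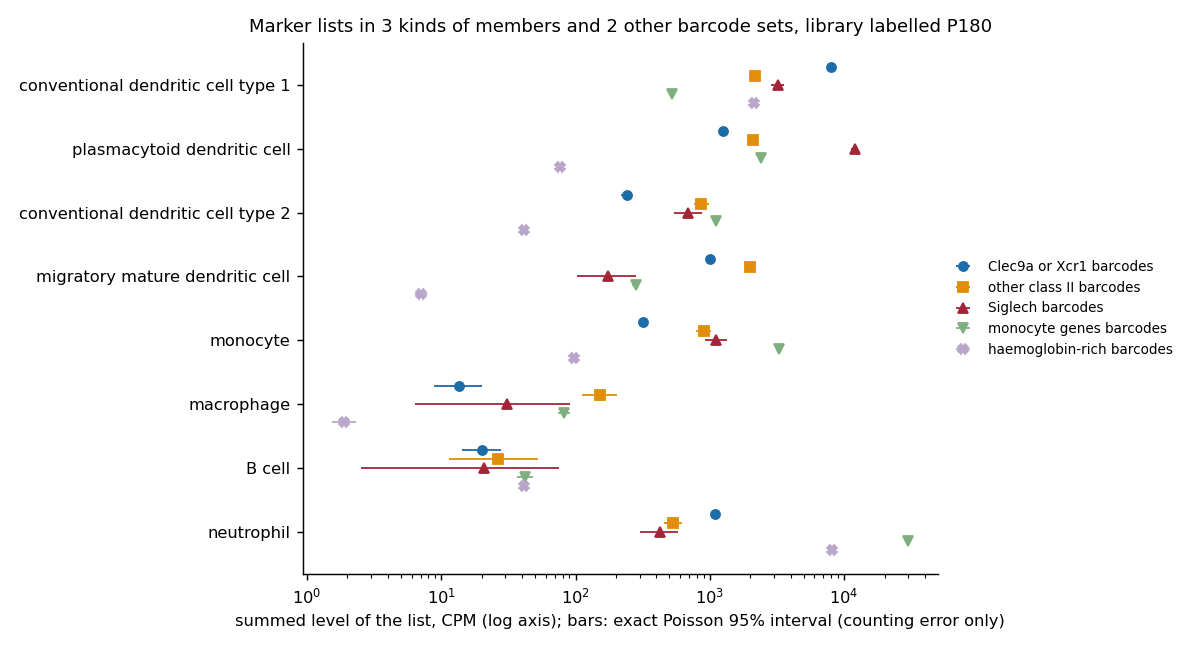
Summed level (CPM, log axis) of 8 fixed gene lists in 3 kinds of dendritic cells and 2 other barcode sets of the library labelled P180; bars are exact Poisson 95% intervals. The type 1 list is highest in the Clec9a/Xcr1 cells at 7971 CPM, and the plasmacytoid list in the Siglech cells at 11966 CPM. The other class II cells include 9 of 18 with at least 10 UMIs of monocyte genes. The haemoglobin-rich barcodes reach 2129 CPM on the type 1 list, with Cd24a alone at 2058 CPM.

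Markers of other cell types were low but not all absent. The rule limited haemoglobin, Camp and Ngp, which belong to the erythroid and neutrophil lists, so the low levels of these lists were partly set by the choice of cells. Of 8 T cell markers 3 were detected, with 5 UMIs, and Cd3e, Cd3g and Trac were at 0. Of 9 natural killer and innate lymphoid markers 4 were detected, with 40 UMIs, and Ncr1 was at 0. Of 10 macrophage markers 5 were detected, at 32.6 CPM, and C1qa, Vsig4, Clec4f, Marco and Cd5l were at 0. All 9 erythroid markers were detected, at 5043 CPM summed and 1834 to 97063 CPM in a cell, and all 10 neutrophil markers, at 984 CPM summed and 138 to 30299 CPM in a cell; the highest neutrophil value was that of 1 Clec9a/Xcr1 cell. Monocyte markers, 9 of 10 detected, summed to 428 CPM. The part of such RNA in the results was not tested. The embryonic globin genes Hba-x, Hbb-bh1 and Hbb-y were at 0.

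Against the other 9486 barcodes past the quality limits, 44.5% of 2928 genes were at least 2-fold higher in the 96 cells and 10.9% lower, a contrast that the rule itself used and from which nothing is read. H2-Aa stood at 6861 CPM in the 96 cells against 23.5 CPM in the other barcodes, Cd74 at 9557 against 63.1 CPM, and Ciita at 209 against 0.91 CPM. The split depended on scaling, since the median log2 ratio of all genes was 0.89. It came to 677 higher and 610 lower without haemoglobin and mitochondrial genes in the totals, and to 508 and 532 by the median of ratios, in place of 1303 and 319. Gm20513, an antisense gene that overlaps the start of H2-Eb1, was also high, and its counts are uncertain.

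A closer neighbour was a set of 175 barcodes with at least 10 UMIs of monocyte genes, under the same limits but with fewer than 10 UMIs of the 8 genes, with a median of 24477 UMIs. Relative to it, 11.0% of 3360 genes reached a 2-fold higher level in the dendritic cells and 8.48% a 2-fold lower one. Type 1 genes were higher for 11 of 11 measured. Clec9a, at 254 CPM in the dendritic cells, had 0 UMIs in the monocyte-gene barcodes and was at least 399-fold higher. Itgae, the integrin chain CD103, stood at 105 against 0.64 CPM (log2 ratio 7.37, 5.81 to 9.66). The stem cell antigen gene Ly6a stood at 165 against 0.64 CPM, and P2ry14, a receptor for nucleotide sugars, at 115 against 0.64 CPM. P3h2 had 0 UMIs in the monocyte-gene barcodes and was at least 188-fold higher. The list of class I genes, which load peptides for CD8 T cells, was higher for 6 of 8 and lower for 0.

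Genes of granules, of early myeloid cells and of monocytes were among the lowest in the dendritic cells. Elane stood at 8.81 CPM in the dendritic cells against 3501 CPM in the monocyte-gene barcodes, Mpo at 7.04 against 2263 CPM, Ctsg at 1.32 against 1185 CPM (log2 ratio -9.81, -12.09 to -8.26) and Prtn3 at 29.9 against 3419 CPM. The monocyte gene F13a1 had a lower ratio than Elane, Mpo and Prtn3, at 0.88 against 542 CPM. F13a1 is among the genes that chose the monocyte-gene barcodes, so that choice favoured its low ratio. Neutrophil markers were lower for 8 of 8, where 8.48% of all 3360 genes compared were at least 2-fold lower and 11.0% higher. Genes of mitosis were lower for 6 of 14 and higher for 0, and genes of DNA replication lower for 3 of 13 and higher for 0.

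Among the 71 Clec9a/Xcr1 cells, 17 held at least 10 UMIs of the division genes Mki67 and Top2a. These 17 cells were deeper, with a median of 36022 UMIs against 23380 UMIs in the other 54, a difference that the count limit favours. Class II RNA took a smaller share of them. H2-Aa, H2-Eb1 and H2-Ab1 summed to 12435 CPM (12157 to 12718) in the 17 cells, against 21395 CPM (21136 to 21656) in the 54. The cells ranged over 5614 to 21394 CPM (median 12287) in the 17 and over 9796 to 30928 CPM (median 21087) in the 54, so the groups overlap. Cd74 stood at 7246 against 12588 CPM, Ciita at 172 (141 to 208) against 287 CPM (257 to 318), and Cst3 at 11712 against 17469 CPM. Itgae stood at 57.3 against 161 CPM and Cd83, a marker of maturation, at 500 against 813 CPM. Of the type 1 genes, Clec9a stood at 236 against 347 CPM, Naaa at 906 against 1235 CPM and Cadm1 at 728 against 1221 CPM, and Irf8 was closer, at 2212 against 2366 CPM. Ms4a6c, a monocyte marker, was higher in the 17 cells, at 161 against 40.1 CPM, with 98 of its 147 UMIs. The whole monocyte list stood at 326 CPM (282 to 375) against 317 CPM (286 to 350), and the part of such RNA in the lower class II levels was not tested. Ccr9 ran the other way, at 60.6 CPM (42.7 to 83.6) in the 17 cells against 17.2 CPM (10.6 to 26.3) in the 54, and 14 of its 58 UMIs in the 71 cells lay in 1 cell.

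**Figure D3:**
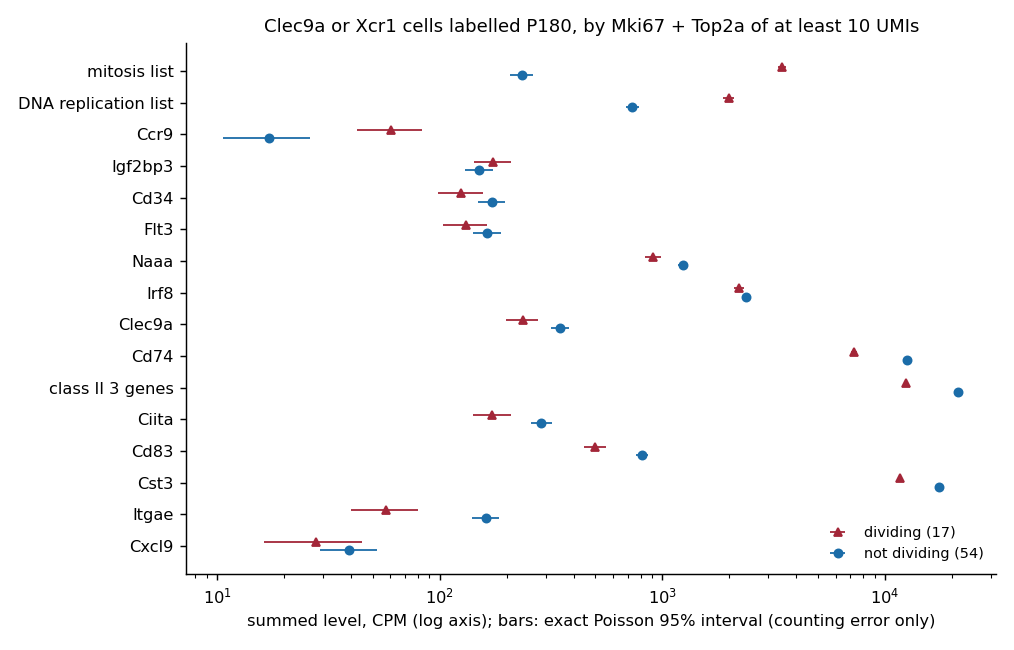
Summed level (CPM, log axis) of genes and lists in the 17 Clec9a/Xcr1 cells with at least 10 UMIs of Mki67 and Top2a, drawn above the other 54; bars are exact Poisson 95% intervals. The mitosis list, which holds both genes, differs by construction. Class II genes, Cd74 and Cst3 lie lower in the 17 cells, and Ccr9 higher.

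All cells chosen by the rule in the library labelled E18.5 make an uneven partner, because they held macrophage genes. The macrophage list summed to 32.6 CPM in the 96 cells labelled P180, against 1697 CPM in the 518 labelled E18.5. C1qa had 0 UMIs in the 96 cells and was at least 447-fold lower there. Among 3360 genes compared, 3.27% reached a 2-fold higher level in the cells labelled P180 and 4.97% a 2-fold lower one, with Hbb-bs, Hba-a1 and Igf2bp3 among the highest and Xist, C1qc, Alb, Spp1 and Apoe among the lowest. The comparison was therefore repeated, after these values were seen, between Clec9a/Xcr1 cells only.

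Clec9a/Xcr1 cells of the library labelled P180 and of the library labelled E18.5 were close for most genes. Among 3250 genes compared, 1.97% reached a 2-fold higher level in the 71 cells labelled P180 and 2.43% a 2-fold lower one, with a median log2 ratio of 0.07. The cells labelled P180 held a median of 24089 UMIs, and those labelled E18.5 18630. Of 14 type 1 genes, 1 was past 2-fold, Xcr1, which was lower in cells labelled P180. Batf3 stood at 197 CPM in cells labelled P180 and 198 CPM in cells labelled E18.5, Cadm1 at 1056 and 1031 CPM, Irf8 at 2315 and 1776 CPM, and Naaa at 1125 and 1498 CPM.

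Igf2bp3 had the highest ratio among the genes that the naming rule kept. That rule left out genes with over 25% of their UMIs in 1 cell, such as the neutrophil gene Camp (104.8 against 1.12 CPM, with 30.2% of its UMIs in 1 cell labelled P180). Igf2bp3 encodes an RNA-binding protein known from fetal tissues and fetal blood formation, and lies at chr6:49085223-49214957 (mm10, minus strand). It stood at 158 CPM (141 to 178) in the cells labelled P180, against 1.95 CPM (0.79 to 4.02) in those labelled E18.5, a log2 ratio of 6.34 (5.28 to 7.67). In the cells labelled P180 it ranged from 0 to 17 UMIs, with a median of 3 and with 66 of 71 cells above 0. In the cells labelled E18.5 it was found in 7 of 195, at 1 UMI each. With each cell thinned to 2000 UMIs, which left out 3 cells labelled E18.5, it was found in 25.4% of cells labelled P180 and in 0% of cells labelled E18.5, for which the exact binomial upper limit of 0 of 192 cells is 1.90%. Igf2bp3 was not particular to dendritic cells: 88.0% of the monocyte-gene barcodes labelled P180 had it, at a median of 24477 UMIs, and 3.11% of the haemoglobin-rich barcodes, at a median of 5409 UMIs. Thinned, these shares were 25.1% and 1.08%.

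Other genes followed at smaller ratios. Cd34, a glycoprotein of stem and progenitor cells, stood at 156 CPM in the cells labelled P180, against 54.4 CPM in those labelled E18.5 (log2 ratio 1.52, 1.25 to 1.79), and in 32.4% against 10.4% of thinned cells. Id1, an inhibitor of helix-loop-helix transcription factors, stood at 174 against 38.5 CPM (2.18), Ifi202b at 174 against 39.9 CPM (2.12), Fabp5, a fatty acid carrier, at 119 against 27.6 CPM (2.11) and Lgals1, a galectin, at 450 against 129 CPM (1.80). Over all 3250 genes compared, 1.97% were at least 2-fold higher and 2.43% lower. Of 6 measured genes of DNA replication, 3 were higher and 0 lower, among them the helicase subunits Mcm3 (87.4 against 30.7 CPM) and Mcm7 (93.9 against 33.5 CPM). Of 7 genes of mitosis, 2 were higher and 0 lower, Cdc20 (80.8 against 29.0 CPM) and Cdk1 (78.6 against 37.1 CPM). The thinned share of cells with any UMI of Mki67 or Top2a was 21.1% (12.3 to 32.4) in cells labelled P180 and 16.1% (11.2 to 22.1) in cells labelled E18.5. Over the whole mitosis list the thinned share was 46.5% (34.5 to 58.7) in cells labelled P180 against 22.4% (16.7 to 29.0) in cells labelled E18.5. Over the DNA replication list it was 78.9% (67.6 to 87.7) against 45.8% (38.6 to 53.2). All these intervals cover counts of cells within 1 library per label and do not test a difference between labels.

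Xcr1 was the 1 type 1 gene past 2-fold. In cells labelled P180 it stood at 83.5 CPM, with a median of 0 UMIs and a highest count of 11, against 442 CPM, a median of 8 and a highest count of 28 in cells labelled E18.5 (log2 ratio -2.40, -2.65 to -2.16). The cells of both labels overlap in Xcr1 counts. Clec9a stood at 310 against 388 CPM (-0.32). Because these 2 genes defined the sets, the sets were also drawn with at least 10 UMIs of Naaa and Cadm1 in their place, which gave 74 cells labelled P180 and 240 labelled E18.5. Xcr1 then stood at 82.3 against 364 CPM (-2.14, -2.39 to -1.90) and Clec9a at 304 against 310 CPM (-0.03). The 240 cells labelled E18.5 held more RNA of the macrophage gene C1qa than those of the first set, at 508 CPM. The part of such RNA in these ratios was not tested.

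**Figure D4:**
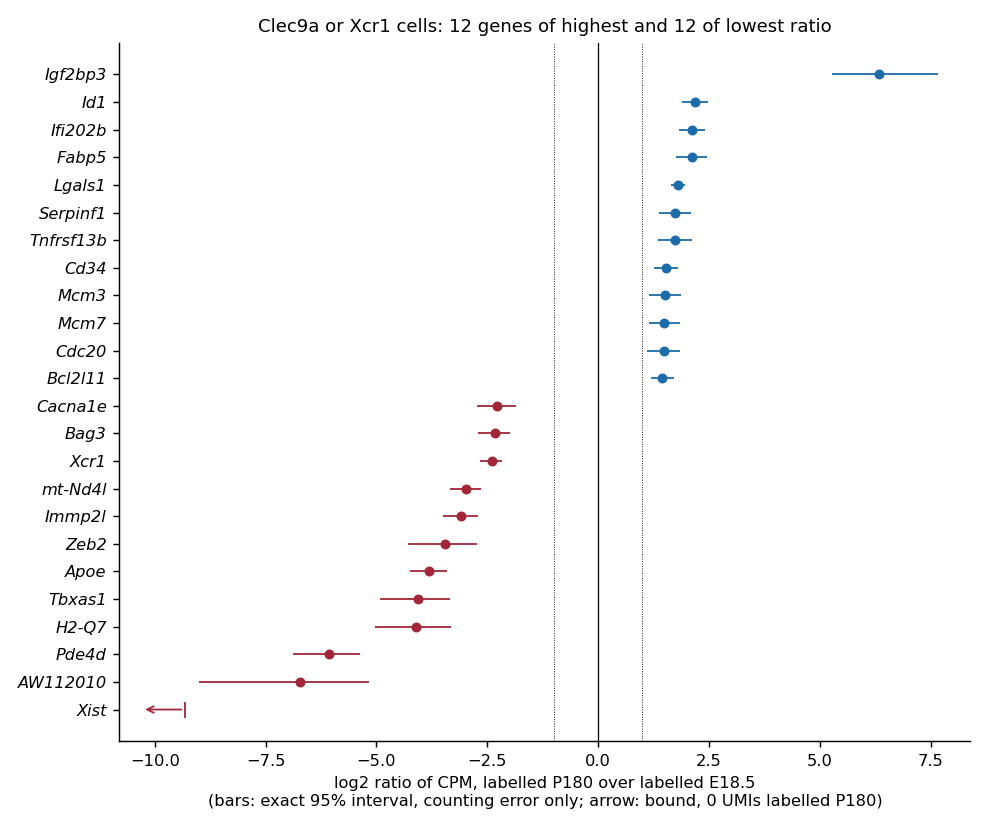
Log2 ratio of CPM, labelled P180 over labelled E18.5, in Clec9a/Xcr1 cells (71 and 195), for the 12 highest and 12 lowest genes that the naming rule kept. Bars are exact 95% intervals, the arrow is a bound from 0 UMIs labelled P180, and the dotted lines mark 2-fold. Igf2bp3 lies far above the rest and Xist, AW112010 and Pde4d far below.

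Among genes the naming rule kept, the lowest ratios were those of Xist, AW112010 and Pde4d. Xist, the RNA that silences an X chromosome in female cells, had 0 UMIs in the cells labelled P180 and 1049 CPM in those labelled E18.5, at least 640-fold lower. The long RNA gene AW112010 stood at 1.64 CPM in cells labelled P180 against 172 CPM in cells labelled E18.5 (log2 ratio -6.72, -9.00 to -5.16), and the phosphodiesterase gene Pde4d at 8.74 against 589 CPM (-6.07, -6.88 to -5.37). Apoe, an apolipoprotein of macrophages and hepatocytes, stood at 28.4 against 399 CPM (-3.81). C1qa, a complement gene of macrophages outside the naming rule, had 0 UMIs in the cells labelled P180 against 125 CPM in those labelled E18.5, where 18 of 195 cells held it, and was at least 76.5-fold lower. Beside these values, the macrophage list summed to 13.6 against 346 CPM, the hepatocyte list to 9.83 against 84.5 CPM, the erythroid list to 4083 against 813 CPM and the neutrophil list to 1097 against 406 CPM. The highest neutrophil value among the chosen cells labelled P180 was that of a single Clec9a/Xcr1 cell. Without cells rich in Mki67 and Top2a, the neutrophil genes S100a8 (log2 ratio -0.63) and S100a9 (-0.33) were lower in cells labelled P180. The median mitochondrial share was 1.22% in cells labelled P180 and 3.31% in cells labelled E18.5. The part of these differences in the results was not tested.

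Class II genes were 0 of 11 higher and 2 of 11 lower in the cells labelled P180. Over all 3250 genes compared, 1.97% were at least 2-fold higher and 2.43% lower. H2-Aa stood at 7871 against 6666 CPM (log2 ratio 0.24, 0.21 to 0.27), H2-Ab1 at 5636 against 6593 CPM (-0.23), H2-Eb1 at 4903 against 6347 CPM (-0.37) and Cd74 at 10808 against 13289 CPM (-0.30). Ciita stood at 248 against 352 CPM (-0.50). The genes past 2-fold encode H2-O, which restrains peptide loading by H2-DM. H2-Oa stood at 25.1 CPM in cells labelled P180 against 114 CPM in cells labelled E18.5 (-2.19, -2.66 to -1.75), and H2-Ob at 32.2 against 143 CPM (-2.15, -2.57 to -1.76). H2-DMb1 itself stood at 555 against 471 CPM.

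Class I genes were 0 of 10 higher and 3 of 10 lower, where 1.97% of all 3250 genes compared were at least 2-fold higher and 2.43% lower. B2m, the light chain of all class I molecules, stood at 692 CPM in cells labelled P180 against 1470 CPM in cells labelled E18.5 (log2 ratio -1.09). The heavy chain genes H2-K1 (527 against 1057 CPM) and H2-T23 (35.5 against 71.1 CPM) lay at the 2-fold limit, and H2-D1 had a log2 ratio of -0.66. With at least 4 UMIs of Xcr1 and Clec9a in a cell, B2m (-0.95) and H2-K1 (-0.92) fell short of 2-fold, and so they did without cells rich in Mki67 and Top2a (-0.93 and -0.94). H2-K1 also fell short with at least 2 UMIs of Clec9a alone (-0.99). Reads of these similar heavy chain genes, and of H2-Q7 (7.098 against 122 CPM), may be shared among them, so their levels are uncertain. Psmb8, a subunit of the immunoproteasome that cuts peptides, stood at 816 against 682 CPM (0.26).

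**Figure D5:**
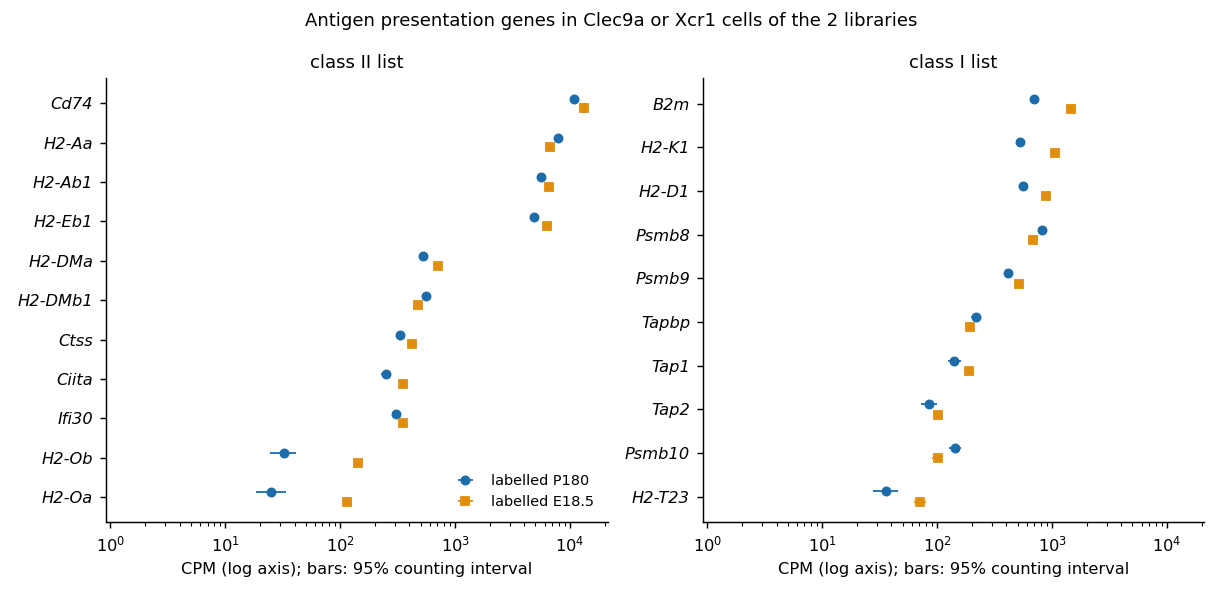
Level (CPM, log axes) of each class II (left) and class I (right) gene measured in Clec9a/Xcr1 cells labelled P180, drawn above those labelled E18.5; bars are exact Poisson 95% intervals. H2-Oa and H2-Ob lie furthest apart on the left, and B2m and H2-K1 lie lower in cells labelled P180 on the right.

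Of 16 measured transcription factors 1 was past 2-fold, Zeb2, at 8.74 CPM in cells labelled P180 against 96.2 CPM in cells labelled E18.5 (log2 ratio -3.46, -4.28 to -2.74). Id2, needed for type 1 cells, stood at 1861 against 1282 CPM. Of 7 sensors of nucleic acids 1 was lower, Ifih1, the RNA sensor MDA5, at 21.3 against 99.3 CPM (-2.22). Of 10 growth factor and cytokine receptors 0 passed 2-fold in either direction, near the shares of 1.97% higher and 2.43% lower over all genes, with Flt3 at 153 against 257 CPM (-0.75). Of 5 chemokine ligands 2 were lower and 0 higher. One was Cxcl9, at 35.5 against 175 CPM, found in 5 of 71 and 24 of 195 cells.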

How the data were processed

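Liver cells of 2 libraries, 1 per label, were profiled on the 10x Chromium platform. Each deposited matrix holds whole-number UMI counts by gene and barcode. Per the file headers, Cell Ranger 7.1.0 wrote them. The names mm10, fastp, Trimmomatic, Seurat and edgeR stand in the submitters' processing notes without roles. The annotation release, the rule for keeping barcodes and the reads per cell are not given in the sources used here. Total counts were 90128038 UMIs in the library labelled P180 and 37709972 in that labelled E18.5, with medians of 6001.5 and 4783 UMIs per barcode past the quality limits.

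Counts were summed over cells, scaled to CPM and given exact Poisson, conditional-ratio or binomial 95% intervals (scipy 1.17.1, pandas 2.3.3 and numpy 2.4.6 under Python 3.11.15). They cover counting error only. With 1 library per label, no p-value was computed. Genes with a mean of at least 50 CPM over both sets were compared, and calls are at least 2-fold. A fold against 0 UMIs used a floor of 3 counts over the set. Genes named are the 12 highest and 12 lowest log2 ratios with at least 20 UMIs, in at least 20% of cells and with at most 25% of UMIs in 1 cell, plus the members of the gene lists. The ratios were checked on simulated counts. Scrublet (scanpy 1.11.5) scored doublets. Its own threshold marked 1 of 9582 barcodes labelled P180 and so did not work there, and none was removed in the results given. The cells and lists were chosen with earlier results of these data known. The division into 4 kinds and the subsets by Zeb2 and Ccr7, the promoter motifs, the sets with Mki67 and Top2a and the comparison of Clec9a/Xcr1 cells were chosen after seeing the data.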

Additional observations from a re-analysis of the deposited data

How the results depend on the processing

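No paired analysis was possible because each label has 1 library, and for the same reason no library could be left out. In all, 24 settings were tried. Of 213 alternatives of the main counts and shares, 187 stayed close to the value given and 26 moved. Without the limit on B cell genes the rule kept 149 cells, of which Clec9a/Xcr1 cells were 51.7% and other class II cells 40.9%, and the comparison of all chosen cells between labels gave 405 genes higher and 366 lower. At 20 UMIs of the 8 genes the share of Flt3 cells without class II RNA was 0%, and with B cell genes at exactly 0 the Cd209a side held 0%. With each cell weighing the same, the cells of both labels gave 176 higher and 256 lower. A minimum of 20 CPM gave 253 higher and 442 lower there, 2503 and 551 against the other barcodes, and 169 and 205 between Clec9a/Xcr1 cells. No minimum gave 1618 and 1970, 6952 and 1542, and 1046 and 1364 in these 3 comparisons, since more genes were then counted. Totals without haemoglobin and mitochondrial genes gave 677 and 610 against the other barcodes, and the median of ratios 508 and 532. Clec9a/Xcr1 cells drawn by Naaa and Cadm1 gave 129 lower.

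Among gene values, list values and thinned shares, 1500 alternatives moved past the interval or spread of the value given, and 9243 stayed within it. A turn of direction was counted only where the value given was at least 2-fold. Of 10712 alternatives of gene and list values, 5 were counted as turned. These were Runx2 between the cells of both labels at -0.16 with B cell genes at exactly 0, Igkc against the other barcodes at 4.38 without the B cell limit, and the type 2 list against the other barcodes at a median of 1.40 with no minimum. Without cells rich in Mki67 and Top2a, S100a9 (-0.33) and S100a8 (-0.63) turned between Clec9a/Xcr1 cells. Where no reason is given, the cause was not tested.

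Removing the highest doublet scores took 2 of the 96 cells and 31 of the 518 labelled E18.5. With 1 library per label, no difference between labels can be set apart from a difference between libraries or livers.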

Other observations

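Some signals lay in few cells. Ifit3, an interferon-induced gene, gave 68 UMIs in the 71 Clec9a/Xcr1 cells labelled P180, all in 1 cell, against 15 UMIs in 9 of 195 cells labelled E18.5. Il1b, the gene of interleukin 1 beta, gave 348 UMIs in 16 of the 71 cells, with up to 74 in a cell, against 383 UMIs in 38 of the 195. Ccl4, a chemokine that draws T cells, gave UMIs in 34 of the 71 cells (860 CPM) against 61 of the 195 (468 CPM).

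Genes induced by tissue dissociation were found in the Clec9a/Xcr1 cells of both libraries. Of 14 such genes, 0 passed 2-fold in either direction between Clec9a/Xcr1 cells of the 2 labels, near the shares over all genes of 1.97% higher and 2.43% lower. Fos stood at 1557 CPM in cells labelled P180 and 1249 CPM in cells labelled E18.5.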
